A study of Homo sapiens with 12 samples.

Results

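The 10 genes described here encode proteins that bind or destabilize microtubules: the stathmins STMN1 and STMN3, the lattice binding proteins MAPT, MAP4, MAP1B, MAP2 and MAP7, and the plus-end proteins MAPRE1, CLIP1 and CKAP5. They were chosen by name, as the rows of the count table whose Ensembl identifiers carry these symbols, and all 10 were found among 63568 identifiers. All 10 were also among the 25249 identifiers that passed the filter on low counts. The RNA came from MDA-MB-231 cells, an established triple negative breast cancer line, here expressing GFP and embedded in Matrigel, a basement membrane extract that sets as a gel. Every condition used this same line and 2 samples. Untreated cells were taken on day 2 (C1) and on day 4 (C2), and cells given Paclitaxel on day 2 at 0.0005, 0.005, 0.05 or 0.5 µM were taken on day 4. The day of dosing is that of the labels of these samples, while the methods state a later day for cells that were imaged. The questions were how the expression levels of these genes stood on the 2 days without drug, and how they stood at each dose beside C2, the untreated samples of the same day. Each sample is bulk RNA from a single cell line grown in plates, so fewer cells of a state and less RNA per cell cannot be told apart.

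Microtubules are hollow polymers of alpha and beta tubulin that grow and shrink at their plus ends. Stathmins bind free tubulin dimers and favour shrinkage, whereas classical microtubule-associated proteins (MAPs) coat the lattice and stabilize it, and plus-end proteins ride the growing tip and govern its growth. Paclitaxel binds beta tubulin inside the polymer and locks microtubules in the assembled state, which arrests dividing cells in mitosis. These proteins share the lattice that the drug occupies, and several of them are known for altering how cells respond to taxanes.

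Depth and identity were checked across the series. The libraries held 38380629 to 79169121 counts, and C1 replicate 2 was the shallowest. The mitochondrial share ran from 3.73% to 7.74% and was highest in that same sample. VIM, CD44, EGFR, CAV1, AXL, MSN and KRT18, which this line is known to express, summed to between 2618 and 4875 CPM (reads per gene relative to all reads of the library, scaled by the TMM method). ESR1, PGR and CDH1, which it is known to lack, summed to between 0.179 and 0.708 CPM. Markers of blood, liver and heart cells (PTPRC, ALB and ACTC1) summed to between 0.0895 and 0.313 CPM in the 4 untreated samples and between 0.505 and 0.644 CPM in the 8 treated samples. The 2 C1 samples stood farther apart than the replicates of any other condition (a chi-square of their counts per degree of freedom of 451, where the other pairs had at most 80.6). Genes with at least 55% GC and genes with at most 45% GC also parted most in these 2 samples: the log2 difference of their median levels was 0.35 in C1 replicate 1 and -0.40 in C1 replicate 2, and between -0.17 and 0.23 in the other 10. Calls of the 10 genes that rest on C1 are therefore also given without it, as are the counts over other microtubule genes.

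The 2 genes that passed the test in any comparison of the main fits, MAP2 and CKAP5, are shown here with the 250 bases before a RefSeq transcript start. They are shown because these 2 windows differ in known promoter motifs. Other settings called further genes of the 10, as given below. CCAAT (the NF-Y box), TTTGAA (the cell cycle homology region of many mitotic genes) and TATAAA were searched on both strands, no match overlapped another, and capitals mark each match. The MAP2 window lies on GRCh37 at chr2:210443806-210444055, plus strand, upstream of the RefSeq start nearest to the annotated canonical start, from which it is still 155285 bases away, within the gene. The CKAP5 window lies on GRCh37 at chr11:46867832-46868081, minus strand, directly before the canonical start.
MAP2: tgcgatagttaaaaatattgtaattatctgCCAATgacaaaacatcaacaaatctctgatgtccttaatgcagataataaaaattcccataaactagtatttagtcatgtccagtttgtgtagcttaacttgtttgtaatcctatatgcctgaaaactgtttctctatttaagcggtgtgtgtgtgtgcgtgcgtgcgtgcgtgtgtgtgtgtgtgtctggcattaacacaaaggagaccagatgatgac
CKAP5: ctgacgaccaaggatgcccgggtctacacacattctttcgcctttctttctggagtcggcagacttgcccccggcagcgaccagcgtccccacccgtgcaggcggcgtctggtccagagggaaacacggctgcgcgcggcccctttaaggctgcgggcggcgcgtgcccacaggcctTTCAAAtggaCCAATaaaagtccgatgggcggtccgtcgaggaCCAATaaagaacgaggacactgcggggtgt
The CKAP5 window held 2 CCAAT matches, at 26 to 30 and 59 to 63 bases before the start, and 1 cell cycle homology match on the opposite strand at 68 to 73 bases. The MAP2 window held 1 CCAAT match, 216 to 220 bases before its start, and neither of the other motifs. The other MAP2 windows in the table held none of the 3 motifs. Of 35116 such windows in the RefSeq table (GRCh38.p14, exactly matched to GRCh37 for both windows shown), 32.0% held CCAAT, 13.3% TTTGAA and 10.7% TATAAA. Windows were found for 9 of the 10 genes, 18 in all, of which 6 held CCAAT, 5 TTTGAA and 3 TATAAA. MAPT had none.

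Levels differed between the 10 genes by orders of magnitude. Per kilobase of all annotated exonic sequence, averaged over 12 samples, the highest level was that of MAPRE1, the end-binding protein EB1, at 108 CPM per kb ± 12.8 (SD, n = 12). STMN1 followed at 52.7 ± 11.9, CKAP5 at 31.7 ± 6.21, MAP4 at 16.2 ± 4.21, MAP1B at 13.8 ± 3.01 and CLIP1 at 7.08 ± 0.413 CPM per kb. The other 4 were low: MAP2 stood at 0.638 ± 0.142, MAP7 (an epithelial kinesin-1 cofactor) at 0.531 ± 0.0844, MAPT at 0.293 ± 0.0642 and STMN3 at 0.186 ± 0.0562 CPM per kb. The order depends on the length used. On the length of the canonical transcript alone, STMN1 came first at 228 ± 51.6 CPM per kb, before MAPRE1, and CLIP1 (22.0 ± 1.29) passed MAP1B (14.7 ± 3.20), while MAP4 stood at 26.3 ± 6.84. MAPT (0.792 ± 0.173) then came before MAP2 (0.783 ± 0.174) and MAP7 (0.770 ± 0.122), and these 3 did not differ beyond their spread. MAP1B, although known from axons, stood far above MAP2 and MAPT on either length.

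**Figure D1:**
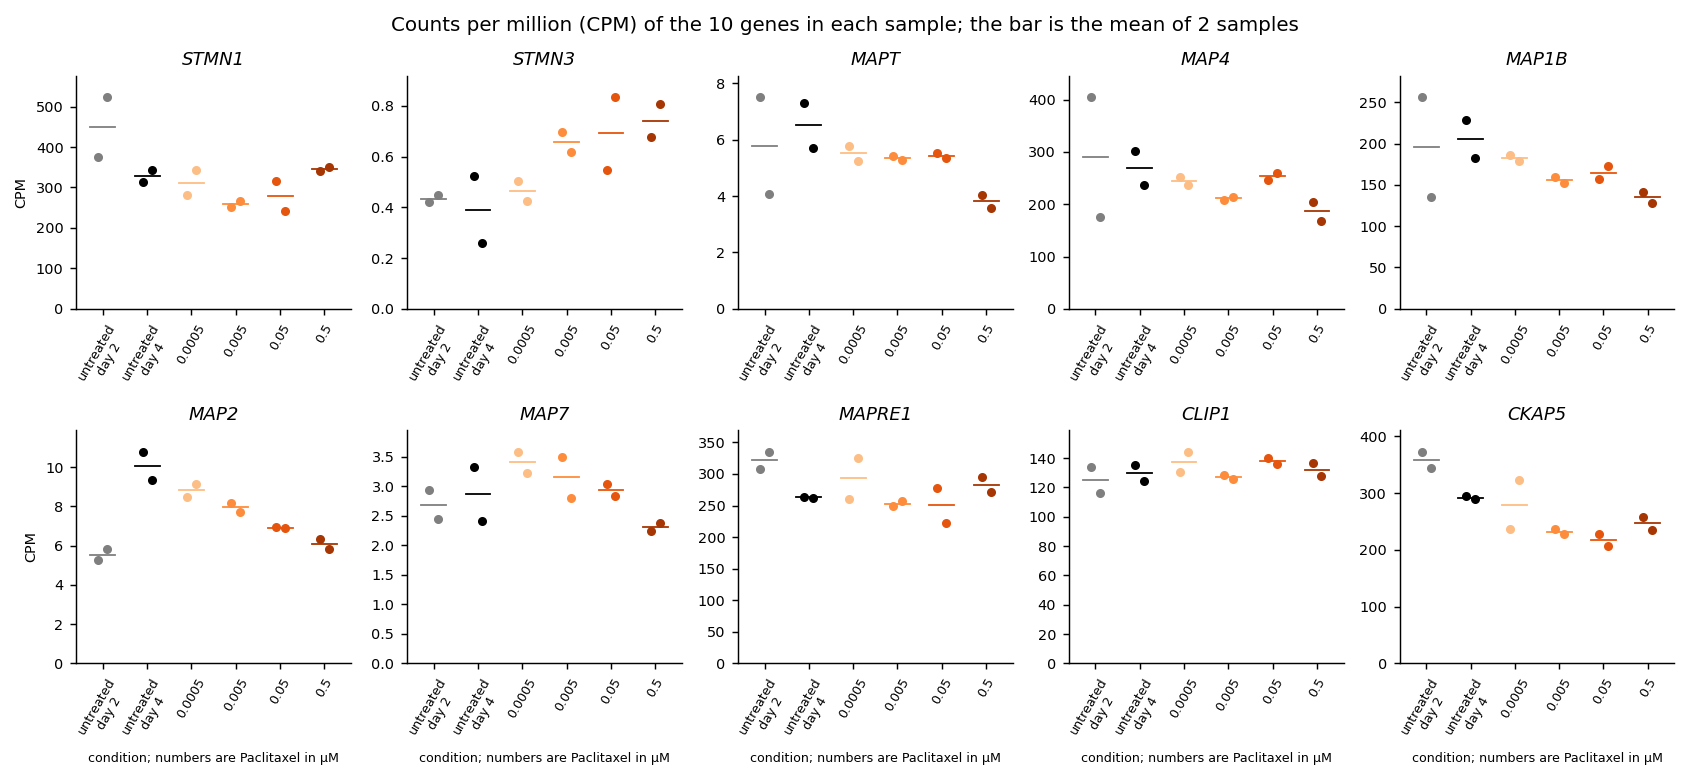
CPM of the 10 genes (vertical axes, each from 0) in the 12 samples by condition (horizontal axes, Paclitaxel in µM), with a dot for each sample and a bar at the mean of 2. MAP2 steps down from 9.33 and 10.8 CPM in C2 to 5.85 and 6.35 CPM at 0.5 µM, while CLIP1 stays between 116 and 145 CPM throughout.

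MAP2, which stabilizes microtubules and is best known from neuronal dendrites (GRCh37, chr2:210288771-210598871, plus strand, 25 exonic blocks), followed the dose most closely. Its level was 5.25 and 5.82 CPM in the 2 C1 samples and 10.8 and 9.33 CPM in the 2 C2 samples. In the treated samples it was 8.47 and 9.15 CPM at 0.0005 µM, 8.19 and 7.71 at 0.005 µM, 6.94 and 6.88 at 0.05 µM, and 6.35 and 5.85 at 0.5 µM. The conditions did not overlap at any step: C2 was highest, each 10-fold rise in dose brought both samples lower than both samples of the dose before, and C1 lay below all treated samples. Of the 25249 genes tested, 38 (0.151%) went down at every step from C2 to 0.5 µM without overlap, and 20 (0.0792%) went up. MAP2 was the only one of the 10 genes to do either.

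With edgeR's quasi-likelihood F test, p adjusted by Benjamini-Hochberg over all tested genes, and an adjusted p under 0.05 as the threshold for a call, MAP2 rose from C1 to C2 by 0.87 on the log2 scale (SE 0.15, 1.82-fold, adjusted p = 0.0331). Against C2 it fell by 0.54 at 0.05 µM (SE 0.15, adjusted p = 0.0422) and by 0.72 at 0.5 µM (SE 0.15, 95% interval -1.05 to -0.40, adjusted p = 0.0174), which left 0.607 of the C2 level. The lower doses gave log2 changes of -0.19 (adjusted p = 0.536) at 0.0005 µM and -0.34 (adjusted p = 0.237) at 0.005 µM, neither past the threshold. The mean of the 4 doses was lower than C2 by 0.45 (log2 change -0.45, SE 0.11, adjusted p = 0.0293), and among the treated samples the level fell by 0.18 on the log2 scale per 10-fold dose (SE 0.04, adjusted p = 0.0269). All 8 treated samples lay below both C2 samples, as for 11.3% of all genes tested. Against the 4 untreated samples of both days the log2 change was -0.07 (adjusted p = 0.803), since C1 lay under the treated range and C2 over it.

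MAP2 was counted with 195 to 694 reads a library, and each of its 5 calls was lost without some single library. The rise from C1 to C2 passed the test without either C1 sample and missed it without any of the other 10 libraries, where its log2 change was 0.76 to 0.97 and its adjusted p 0.0594 to 0.291. When the 4 samples of that comparison were fitted alone, its log2 change was 0.86 with an adjusted p of 0.998. The call at 0.05 µM likewise held without either C1 sample and was lost without any of the other 10 (log2 change -0.64 to -0.43, adjusted p 0.0658 to 0.271). The call at 0.5 µM was lost without C2 replicate 1 (-0.61, adjusted p = 0.176), without 0.5 µM replicate 1 (-0.82, adjusted p = 0.0686) or without 0.5 µM replicate 2 (-0.66, adjusted p = 0.17). The call for the mean of the doses was lost without any of 8 of the 12 libraries, both C2 samples among them (log2 change -0.55 to -0.34, adjusted p 0.0506 to 0.361), and that of the slope without any of 5 of the 8 treated libraries (-0.19 to -0.16, adjusted p 0.0539 to 0.132). In the day 4 samples alone the 0.5 µM change was -0.72 with an adjusted p of 0.00153.

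MAP2 was set beside GC content as well, because the libraries differ in it. After an offset for GC content and length in each library, MAP2 stood at 11.1 and 10.1 CPM in C2, at 9.62 and 10.2 at 0.0005 µM, at 9.16 and 8.79 at 0.005 µM, at 8.09 and 8.14 at 0.05 µM and at 7.28 and 6.67 at 0.5 µM. Only the first step, from C2 to 0.0005 µM, then overlapped. The log2 change at 0.5 µM was -0.60 (adjusted p = 0.014) and passed the test, whereas that at 0.05 µM was -0.38 (adjusted p = 0.0726) and did not.

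**Figure D2:**
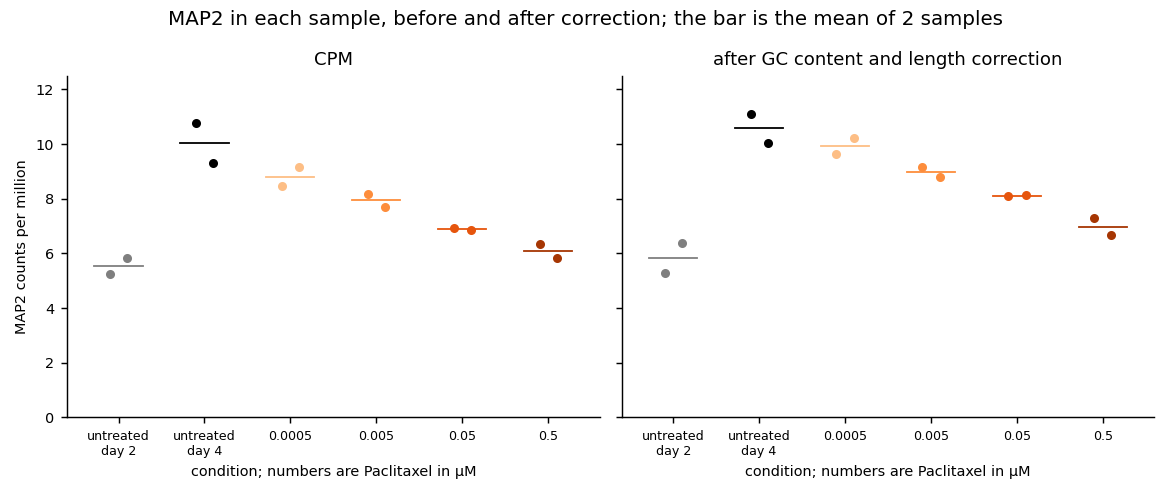
MAP2 CPM (vertical axis, from 0) by condition, with a dot for each sample and a bar at the mean of 2, as scaled by TMM (left) and after a correction for GC content and length (right). The order of the conditions is the same in both panels, and C2 and 0.0005 µM overlap on the right only.

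Among 11091 genes with a symbol and a mean of at least 5 CPM, those whose log2 CPM followed MAP2 most closely over the 12 samples were NFKBIA, the inhibitor of NF-kappa-B (Pearson r = 0.952), GPR155 (r = 0.924) and PPP2R5B, a regulatory subunit of protein phosphatase 2A (r = 0.905). The 12 points share their libraries, and these values are a description without a test.

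MAPT (the tau gene, chr17:43971893-44105700, plus strand), MAP4 (the main MAP of tissues outside the nervous system, chr3:47892180-48130762, minus strand) and MAP1B (chr5:71403061-71505392, plus strand) moved together and were lowest at 0.5 µM. MAPT stood at 7.51 and 4.06 CPM in C1 and at 7.30 and 5.72 CPM in C2. It stood between 5.25 and 5.77 CPM in the 6 samples of the 3 lower doses, and at 4.04 and 3.59 CPM at 0.5 µM. The 2 samples at 0.5 µM were thus the lowest of all 12, and the lower doses kept within the range of the untreated samples.

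MAP4 showed the same spread in C1, at 405 and 176 CPM, and stood at 302 and 236 CPM in C2. Its treated samples were at 253 and 237 CPM at 0.0005 µM, 209 and 214 at 0.005 µM, 246 and 260 at 0.05 µM, and 205 and 168 at 0.5 µM. Of its 8 treated samples, 7 lay within the wide range of the untreated ones and 4 below both C2 samples.

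MAP1B, a MAP of growing axons, stood at 256 and 135 CPM in C1 and at 229 and 182 CPM in C2. It stood at 186 and 179 CPM at 0.0005 µM, 160 and 152 at 0.005 µM, 157 and 173 at 0.05 µM, and 141 and 128 at 0.5 µM. Of the 8 treated samples, 7 lay below both C2 samples for MAP1B and for MAPT, while 7 and 6 lay within the range of all 4 untreated samples. All 8 lay below both C2 samples for 11.3% of all genes tested.

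At 0.5 µM against C2 the log2 changes were -0.77 for MAPT (SE 0.24, adjusted p = 0.0834), -0.61 for MAP1B (SE 0.24, adjusted p = 0.149) and -0.53 for MAP4 (SE 0.29, adjusted p = 0.3), and none passed edgeR's test in the fit of all 12 samples. Without the 2 C1 samples, an alternative chosen after seeing the data, the changes were of the same size and all 3 passed: MAPT at -0.77 (adjusted p = 0.00276), MAP1B at -0.61 (adjusted p = 0.00317) and MAP4 at -0.53 (adjusted p = 0.0121). With MAP2 that made 4 of the 10 genes called lower at this dose, where 10.7% of all genes tested were called lower and 19.9% were called in either direction. Without C1, MAPT (-0.38, adjusted p = 0.0275) and MAP1B (-0.36, adjusted p = 0.0123) were also called lower for the mean of the 4 doses, beside 11.7% of all genes called lower. Leaving out C1 replicate 1 or C1 replicate 2 by itself gave the same 4 calls at 0.5 µM and the same 3 for the mean of the doses.

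The GC composition of the libraries moved with these 3 genes. Over the 12 samples the Pearson r of the log2 CPM with the difference between GC-rich and GC-poor genes was 0.744 for MAPT, 0.859 for MAP4 and 0.728 for MAP1B, against 0.01 for MAP2, and the genes' own exons hold 53.2%, 48.4%, 44.6% and 42.5% GC. With the GC and length offset the 0.5 µM changes were -0.56 for MAPT (adjusted p = 0.0284), -0.47 for MAP1B (adjusted p = 0.111) and -0.36 for MAP4 (adjusted p = 0.253). After this offset the 2 samples at 0.5 µM were still the lowest for MAPT, at 4.82 and 4.32 CPM, where the other 10 ran from 5.48 to 7.14 CPM. The part of library composition in the changes of MAP4 and MAP1B was not tested further.

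**Figure D3:**
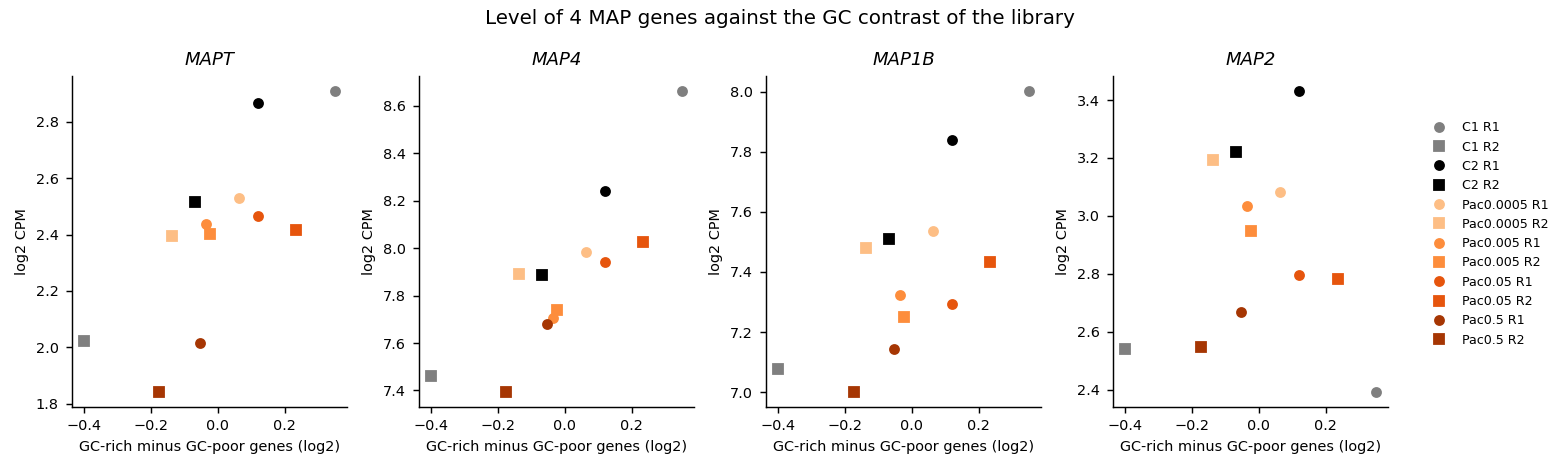
The log2 CPM of MAPT, MAP4, MAP1B and MAP2 (vertical axes) against the log2 difference between GC-rich and GC-poor genes of the same library (horizontal axes), with a point for each of 12 samples, circles for replicate 1 and squares for replicate 2. C1 replicate 1, at 0.35, and C1 replicate 2, at -0.40, sit at opposite ends of every horizontal axis, far apart in height for the first 3 genes and close in height for MAP2.

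The likeness of these genes extends to others of the same libraries. MAPT, MAP4 and MAP1B correlated with each other at r = 0.909 to 0.953 over the 12 samples. The genes most like MAP4 were TGFB1 (r = 0.99), RANBP3 (0.988) and FAM53B (0.988), those most like MAP1B were MGAT5 (0.991), DNAJC5 (0.982) and HIP1 (0.982), and those most like MAPT were EPB41L1 (0.972), TBC1D17 (0.968) and CHPF2 (0.962).

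MAP7 (chr6:136663419-136871957, minus strand) had 2.94 and 2.45 CPM in C1 and 3.32 and 2.41 in C2. At 0.0005 µM it had 3.59 and 3.23 CPM, at 0.005 µM 3.50 and 2.80, at 0.05 µM 3.03 and 2.83, and at 0.5 µM 2.24 and 2.37. The 0.5 µM samples were again the lowest of the 12. The slope over the treated samples was -0.18 on the log2 scale per 10-fold dose (SE 0.06, adjusted p = 0.105), close to that of MAP2 in size but not past the threshold, and the 0.5 µM change against C2 was -0.32 (adjusted p = 0.393). With single libraries left out the 0.5 µM change ran from -0.53 to -0.065. All 5 lattice binding genes had slopes below 0, of which that of MAP2 passed the test, where 47.7% of all genes tested and 62.1% of those with a mean of at least 8 CPM had one below 0. The genes most like MAP7 were HES2 (r = 0.887), ANOS1 (0.863) and APOL2 (0.844).

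CKAP5, the human homologue of XMAP215 and a polymerase at the plus end and the spindle pole (chr11:46764598-46867859, minus strand, 46 exonic blocks), was the member called lower over all treated samples. It stood at 373 and 344 CPM in C1 and at 295 and 289 CPM in C2. The treated samples stood at 236 and 322 CPM at 0.0005 µM, 237 and 227 at 0.005 µM, 228 and 208 at 0.05 µM, and 258 and 236 at 0.5 µM. A single treated sample, 0.0005 µM replicate 2, reached into the untreated range, and the other 7 lay below all 4 untreated samples. For 5.77% of all genes tested all 8 treated samples lay below all 4 untreated ones. The share with 7 of 8 was not counted.

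For the 8 treated against the 4 untreated samples CKAP5 fell by 0.42 on the log2 scale (SE 0.12, 0.75-fold, adjusted p = 0.0163 by edgeR). That made 1 of the 10 genes called in this comparison, beside 24.4% of all genes tested and 11.3% called lower. The untreated days themselves stood apart by -0.30 from C1 to C2 (adjusted p = 0.537), and against C2 alone the mean of the doses gave -0.26 (SE 0.12, adjusted p = 0.208) and 0.05 µM gave the largest change, -0.42 (adjusted p = 0.133). The call was lost without C1 replicate 1 (-0.34, adjusted p = 0.0673) and without both C1 samples (-0.25, adjusted p = 0.229). The genes most like CKAP5 included PARP4 (r = 0.99) and G3BP1 (0.979), an RNA-binding protein of stress granules.

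STMN1, the stathmin of proliferating cells, also called oncoprotein 18 (chr1:26210672-26233482, minus strand), was highest on day 2. It stood at 376 and 524 CPM in C1, at 314 and 344 in C2, at 280 and 343 at 0.0005 µM, at 252 and 268 at 0.005 µM, at 317 and 243 at 0.05 µM and at 341 and 350 at 0.5 µM. The lowest values were thus at the middle doses, and the highest dose overlapped C2. The log2 change from C1 to C2 was -0.45 (SE 0.19, adjusted p = 0.466), that of 0.5 µM against C2 was 0.07 (95% interval -0.34 to 0.48), and that of treated against untreated was -0.38 (SE 0.14, adjusted p = 0.0584), none past the threshold. DESeq2 called the last of these (adjusted p = 0.035), and without C1 it was -0.13 (adjusted p = 0.59). With single libraries left out the STMN1 change from C1 to C2 ran from -0.67 to -0.15.

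Cell cycle genes were read beside STMN1 and CKAP5. The summed level of 14 proliferation markers was 2824 to 2897 CPM in C1, 1874 to 1928 in C2, 1420 to 1468 at 0.005 µM and 1778 to 1967 at 0.5 µM. The 10 S phase markers summed to 1228 to 1568 CPM in C1, 955 to 990 in C2 and 557 to 708 in the 8 treated samples, and all 10 were called lower in treated against untreated samples, as were 7 of the 14 proliferation markers. Without C1 these counts were 9 of 10 and 4 of 14. Of all genes tested 11.3% were called lower in this comparison (6.35% without C1), and of those with a mean of at least 8 CPM 21.1%. At 0.5 µM against C2 all 10 S phase markers were below 0 (4 called), whereas 8 of the 14 proliferation markers were above 0 (2 called higher, 1 lower). Along the dose 5 of the 14 were called rising and none falling. Of genes with a mean of at least 8 CPM, 64.4% were below 0 at 0.5 µM and 35.6% above. There 1.25% of them were called higher and 3.5% lower, and along the dose 1.01% were called rising and 3.27% falling. The genes most like STMN1 over the 12 samples were H2AZ1, a histone variant (r = 0.986), BAG2 (0.98) and UMPS (0.98). The part of the cell cycle in the levels of STMN1 and CKAP5 was not tested.

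STMN3, a stathmin otherwise known from neurons (chr20:62271058-62289035, minus strand), was the member with the largest positive changes and the fewest reads, 14 to 64 a library. It stood at 0.421 and 0.447 CPM in C1 and at 0.524 and 0.258 in C2. The treated samples stood at 0.505 and 0.425 CPM at 0.0005 µM, 0.696 and 0.619 at 0.005 µM, 0.548 and 0.835 at 0.05 µM and 0.676 and 0.809 at 0.5 µM. The 6 samples at the 3 upper doses lay above all 4 untreated samples. How many genes did so was not counted. For 7.39% of all genes tested, all 8 treated samples lay above all 4 untreated ones. The log2 change was 0.90 at 0.5 µM against C2 (SE 0.36, adjusted p = 0.155) and 0.63 for treated against untreated samples (SE 0.24, adjusted p = 0.0636), and neither passed the test, the latter also not without C1 (0.71, adjusted p = 0.16). With single libraries left out the 0.5 µM change ran from 0.50 to 1.52. Markers of other cell types at the same low level changed alongside: their sum was higher in all 8 treated than in all 4 untreated samples, as given above, and PTPRC and ALB were called higher, though not without C1 (adjusted p = 0.277 and 0.052). Of all genes tested 13.1% were called higher in treated against untreated samples, and of those with a mean of at least 8 CPM 3.92%. The part of these markers in the STMN3 values was not tested.

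The 2 other plus-end genes did not pass the test in any comparison. MAPRE1 (chr20:31407760-31438211, plus strand) stood at 308 and 336 CPM in C1, 264 and 263 in C2, 261 and 325 at 0.0005 µM, 250 and 256 at 0.005 µM, 277 and 223 at 0.05 µM and 296 and 271 at 0.5 µM. Of its 8 treated samples, 4 lay below both C2 samples and 4 above. The log2 change of the mean of the doses against C2 was 0.03 with a 95% interval of -0.24 to 0.30. Its sign turned with the GC and length offset (-0.0096) and with both untreated days as the control (-0.11). The genes most like MAPRE1 were XRCC6 (r = 0.987), EI24 (0.98) and APEX1 (0.977).

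CLIP1, the linker protein CLIP-170 that rides growing plus ends (chr12:122755979-122907216, minus strand), varied least. Its lowest sample was C1 replicate 2 at 116 CPM and its highest 0.0005 µM replicate 2 at 145 CPM, a ratio of 1.25, where the other 9 genes had ratios of 1.50 to 3.24. The conditions overlapped at every step of their order. The mean of the doses differed from C2 by 0.04 on the log2 scale, with an interval of -0.18 to 0.27, and the slope was -0.01 per 10-fold dose with an interval of -0.09 to 0.07. The genes most like CLIP1 were TMEM41A (r = 0.941), BASP1 (0.928) and ZRANB1 (0.921).

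**Figure D4:**
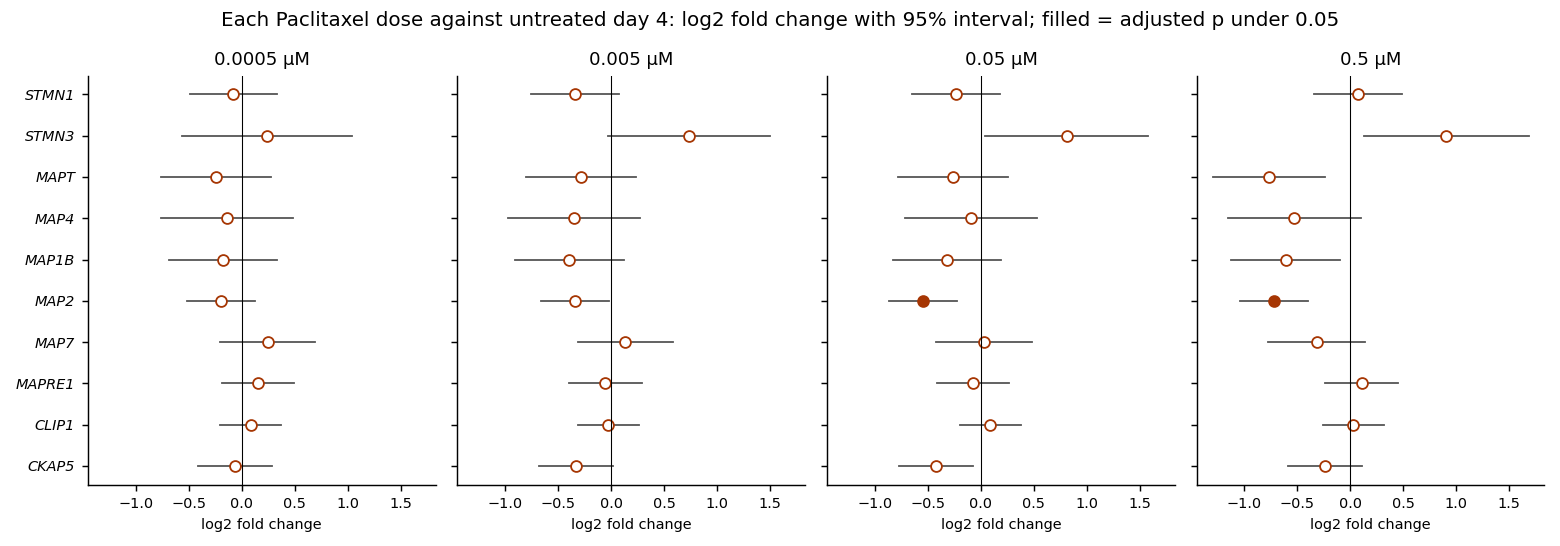
Log2 fold change of the 10 genes against untreated day 4 (horizontal axes) at each dose, with 95% intervals from edgeR and filled points for an adjusted p under 0.05. Only MAP2 is filled, at 0.05 µM (-0.54) and 0.5 µM (-0.72), and the widest intervals are those of STMN3.

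Counted over the 10 genes, 1 was called from C1 to C2, beside 0.325% of all genes tested, and the doses of 0.0005 µM and 0.005 µM gave none, beside 2.34% and 3.28%. At an unadjusted p under 0.05, 0.0005 µM gave 0 (17% of all genes tested) and 0.005 µM gave 1, which was MAP2 (18.7%), and DESeq2 called none at either dose. At 0.05 µM and at 0.5 µM 1 was called, beside 8.32% and 6.32%, and for the mean of the 4 doses and the slope 1 was called, beside 9.74% and 3.06%. The median log2 change of the 10 genes was -0.21 for the mean of the doses and -0.21 for treated against untreated samples (-0.205 and -0.207). All genes tested had medians of 0.0021 and -0.0019, and the 11193 genes with a mean of at least 8 CPM had medians of -0.10 and -0.15. By role, 4 of the 5 lattice binding genes had a change below 0 for the mean of the doses (median -0.37), as had 1 of the 3 plus-end genes (median 0.03) and 1 of the 2 stathmins. Of all genes tested 49.8% had a change below 0 in this comparison, and of those with a mean of at least 8 CPM 66.1%.

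A wider list of 74 other genes that act on microtubules was read in the same fits, and 70 of them passed the filter on low counts. STMN2, STMN4, DCX and KIF2B, which belong to neurons or the germ line, did not. For the mean of the doses against C2, 2 were called higher and 6 lower, and for treated against untreated samples 5 higher and 17 lower (medians -0.14 and -0.21). Along the dose, 7 had a rising and 2 a falling slope. All genes tested had 5.64% called higher and 4.10% lower for the mean of the doses, 13.1% and 11.3% for treated against untreated samples, and 1.02% rising and 2.04% falling along the dose. Most of the list was abundant, 56 of 70 genes having a mean of at least 8 CPM, and of all genes at that level 3.92% were called higher and 21.1% lower for treated against untreated samples, and 1.69% and 7.17% for the mean of the doses. Without the C1 samples, 2 were called higher and 8 lower for treated against untreated samples, beside 13.5% of all genes tested called in either direction and 6.35% lower. For the mean of the doses without C1, 3 were called higher and 19 lower, beside 11.7% of all genes tested called lower. By list these 19 were 6 of 20 plus-end proteins, 5 of 12 kinases and tubulin-modifying enzymes, 4 of 12 severing and depolymerizing proteins, 3 of 10 spindle proteins and 1 of 13 lattice binding proteins.

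Most spindle proteins had slopes above 0. Of 10 measured, all were below 0 in treated against untreated samples (2 called), and without C1 6 of the 10 were (1 called). Of genes with a mean of at least 8 CPM, 73.9% were below 0 in the former comparison and 21.1% were called lower. Along the dose 9 had slopes above 0 (4 called rising: KNSTRN, SPAG5, HMMR and ASPM). Of all genes tested 52.3% had slopes above 0 and 1.02% were called rising, and of those with a mean of at least 8 CPM 37.9% and 1.01%. ASPM, which focuses spindle poles, stood at 123 and 147 CPM in C1, 99.8 and 104 in C2, between 64.8 and 75.9 in the 6 samples of the 3 lower doses, and 103 and 97.3 at 0.5 µM. Its slope was 0.18 per 10-fold dose (SE 0.04, adjusted p = 0.0286 by edgeR), opposite in sign to that of MAP2. Like MAP2, ASPM was called lower for the mean of the doses against C2 (-0.41, adjusted p = 0.0311 by edgeR). In treated against untreated samples ASPM was called lower too (-0.61, adjusted p = 0.00433), but not without C1 (-0.38, adjusted p = 0.101). NUSAP1, which bundles spindle microtubules, fell by 0.82 in treated against untreated samples (adjusted p = 0.000416) and had a slope of -0.08 (adjusted p = 0.445). Without C1 its change was -0.51 (adjusted p = 0.0178).

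Of 12 severing and depolymerizing proteins measured, 6 were called lower and none higher in treated against untreated samples (2 lower without C1), and 2 were called lower for the mean of the doses. Of all genes tested 11.3% were called lower in treated against untreated samples (6.35% without C1), and of those with a mean of at least 8 CPM 21.1%. At 0.5 µM against C2, 6 of the 12 had a change below 0. FIGNL1, an ATPase of the fidgetin family, fell by 0.70 for the mean of the doses against C2 (SE 0.10, adjusted p = 0.00186), from 47.3 and 48.9 CPM in C2 to between 24.6 and 34.6 CPM in the 8 treated samples. KATNAL1, a katanin subunit, fell by 0.49 (adjusted p = 0.0257), from 40.6 and 33.3 CPM to between 23.4 and 30.5. The treated and C2 samples did not overlap for either gene, as for 11.3% of all genes tested in this direction. KIF18A, a kinesin that shortens spindle microtubules, stood at 57.5 and 55.4 CPM in C2, at 38.5 and 40.9 CPM at 0.0005 µM and at 60.4 and 56.1 CPM at 0.5 µM, a slope of 0.18 (adjusted p = 0.0173). In treated against untreated samples KIF24 (-0.40, adjusted p = 0.0227) and KIF2A were called lower too, and without C1 neither was (-0.22, adjusted p = 0.215, for KIF24 and -0.21, adjusted p = 0.178, for KIF2A).

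Of the 20 other plus-end proteins, 4 were called lower and none higher in treated against untreated samples, and 19 had a change below 0, where 73.9% of genes with a mean of at least 8 CPM had one and 21.1% were called lower. Without C1, 2 of the 20 were called lower. TACC1, of the TACC family that partners CKAP5, fell by 0.53 for the mean of the doses against C2 (SE 0.12, adjusted p = 0.0184), from 153 and 132 CPM in C2 to between 92.8 and 104 CPM in the treated samples. TACC3 and GTSE1, both mitotic, were called rising along the dose, and MAPRE3, the neuronal relative of MAPRE1, falling. GTSE1 was at 32.0 to 34.3 CPM in the 4 samples of the 2 lower doses and at 44.3 to 50.6 in the 4 of the 2 upper doses (slope 0.22, SE 0.05, adjusted p = 0.0198).

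The 13 other lattice binding proteins measured split. In treated against untreated samples 4 were called higher (DCLK1, MTUS1, MTUS2 and MAP7D2) and 2 lower (MAP9 and MAP10), of which DCLK1, MAP7D2 and MAP9 were also called without C1. Of all genes tested 13.1% were called higher and 11.3% lower (13.5% in either direction without C1). With a mean of at least 8 CPM 3.92% were called higher and 21.1% lower, so that calls higher were more common at lower levels. DCLK1, MTUS2 and MAP7D2 lay below 8 CPM. DCLK1, a doublecortin-like kinase, rose by 0.93 for the mean of the doses against C2 (SE 0.18, adjusted p = 0.00911), from 0.835 and 1.12 CPM in C2 to between 1.34 and 2.18 CPM in the treated samples. MTUS1 stood at 10.9 and 10.3 CPM in C1 and at 18.2 and 15.8 in C2, and its treated samples ran from 16.6 to 22.4 CPM, so that its higher level in treated samples (0.46, adjusted p = 0.0226) came to 0.16 (adjusted p = 0.405) against C2. MAP9 had -0.40 in treated against untreated samples (adjusted p = 0.0168) and -0.38 without C1 (adjusted p = 0.0255). MTUS2 and MAP7D2 had means under 1 CPM.

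Among kinases and tubulin-modifying enzymes, 3 of 12 were called lower in treated against untreated samples and none higher (2 lower without C1), beside the same 11.3% of all genes tested. MARK1, which phosphorylates MAPT, MAP2 and MAP4, fell by 0.52 for the mean of the doses against C2 (SE 0.14, adjusted p = 0.0349), from 7.12 and 6.57 CPM in C2 to between 4.36 and 5.24 CPM in the treated samples. The tubulin detyrosinating enzymes VASH1 (-0.60, adjusted p = 0.00409) and VASH2 (-0.54, adjusted p = 0.0466) were the other 2. For the mean of the doses against C2 neither was called (adjusted p = 0.0585 and 0.145), and in treated against untreated samples without C1 VASH1 was called (-0.59, adjusted p = 0.0129) and VASH2 was not (-0.57, adjusted p = 0.0663). SIRT2, a tubulin deacetylase, was called falling along the dose. Of the 3 minus-end CAMSAP genes, CAMSAP3 was called higher in treated against untreated samples, at a mean under 1 CPM, but not without C1. Of all genes tested 13.1% were called higher in that comparison.

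**Figure D5:**
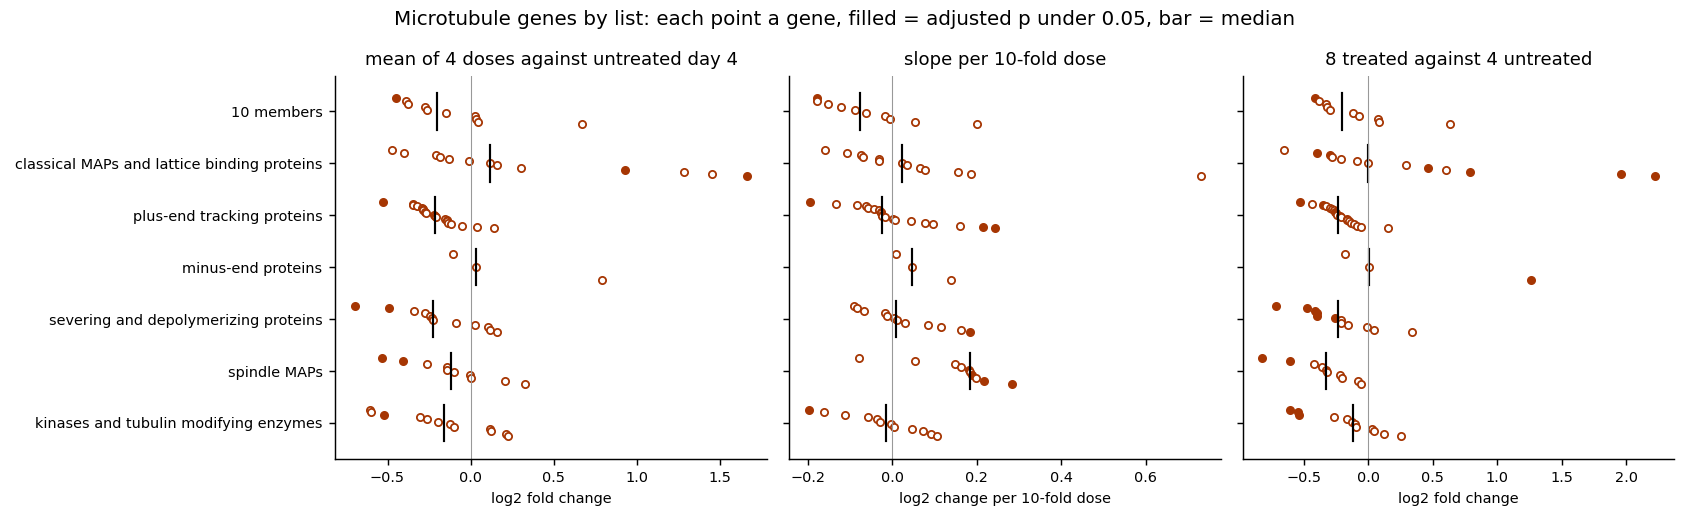
Log2 change of the 10 genes and of the other microtubule genes by list (vertical axis), for the mean of the 4 doses against C2, the slope per 10-fold dose, and treated against untreated samples (horizontal axes), with a point for each gene, filled where the adjusted p is under 0.05, and a bar at the median. The spindle list lies right of 0 for the slope (9 of 10) and left of 0 for treated against untreated samples (10 of 10), whereas 8 of the 10 genes have slopes below 0.

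The annotation bears on how these genes can be read. Strand was not stated for the counting, and antisense transcripts overlap the exons of MAPT (MAPT-AS1, 0.41% of its exonic length), MAP7 (MAP7-AS1, 2.92%) and CLIP1 (CLIP1-AS1, 2.53%). Their mean counts were 0.17, 4.42 and 35.7 beside 360, 193 and 8690 for the genes they overlap. The counts cover whole genes, so that isoforms, such as those of MAPT and MAP2 from alternative exons, and the phosphorylation of these proteins were not measured.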

How the data were processed

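RNA of 12 samples was sequenced as paired-end reads on an Illumina instrument. According to the methods and the submitters' processing notes, the authors trimmed the reads (Trimmomatic 0.39), checked them (FastQC 0.11.9), aligned them to GRCh37 (STAR 2.7.5) and counted reads that aligned uniquely within exons. The deposited values are whole-number counts per gene, neither normalized nor pooled by the authors, and the 12 single-sample files were identical to the series table. The strand setting of the counting is not given in the sources used here. The methods call the samples biological replicates.

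Symbols were assigned to 55665 of 63568 identifiers by a gene name table, and coordinates, exons and GC content from GENCODE release 44 on GRCh37. Counts were filtered with filterByExpr, scaled by TMM and tested with edgeR 4.0.16 (R 4.3.3) by its robust quasi-likelihood F test, two-sided, with Benjamini-Hochberg adjustment over 25249 genes and a threshold of 0.05. A model of the 6 conditions gave the contrasts with C2 and with C1, the 8 treated samples gave the slope on log10 dose, and a model of 2 groups gave treated against untreated samples. Intervals are at 95%. The contrasts of the doses share the 2 C2 samples. Alternatives were DESeq2 1.42.0, RLE scaling, other filters, offsets for GC content and length, other sample sets and each library left out. On simulated counts of 25249 genes, 67 were given a 2-fold change. The test of 0.5 µM against C2 recovered 19 of these 67 (28.4%) and that of treated against untreated samples 47 (70.1%).

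The genes, the list of other microtubule genes and the markers were chosen with earlier results of these data known. All 10 genes are named. Of the list, 29 genes were called in any of the 3 pooled comparisons, 26 of them at a mean of at least 1 CPM, and the 15 with the largest change in treated against untreated samples were to be named with values. Others are named only beside a count. For each gene with a mean of at least 1 CPM the 3 genes most like it were to be given. A few genes that these rules and the marker lists name are not reported here. The replicate numbers were not taken to pair samples, since the replicate differences of conditions correlated at -0.60 to 0.70. Amino acid sequences were not used here.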

Additional observations from a re-analysis of the deposited data

How the results depend on the processing

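No call of one of the 10 genes turned in direction: of 121 alternatives for called log2 changes, 73 kept the call and 48 lost it. Over all 1642 alternatives for the log2 changes of these genes, 1492 kept both direction and side of the threshold, 48 lost the call, 47 gained one and 55 turned in sign, each of these a change that had not been called. Both scaling methods, TMM and RLE, called the same number of the 10 genes in every comparison, and so did the fit with no robust estimation. With 2 samples a condition many changes of 2-fold or less can be missed. On simulated counts 4.48% of 1.5-fold, 28.4% of 2-fold and 65.2% of 3-fold changes were recovered at 0.5 µM against C2. For treated against untreated samples these were 32.8%, 70.1% and 87.9%. Each share is over 66 or 67 changed genes. The cause of the changes below was not tested, except that fewer samples or genes enter some fits by construction.

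The number of the 10 genes called moved as follows. From C1 to C2 it went from 1 to 0 in the 4 samples alone. At 0.005 µM it went from 0 to 2 (STMN1 and CKAP5) with both untreated days as the control. At 0.05 µM it went from 1 to 0 with genes of at least 1 count in total, with a mean CPM of at least 1, with the GC content and length offsets and in the 4 samples alone, and with both untreated days it stayed at 1 with CKAP5 (-0.57, adjusted p = 0.0173 by edgeR) in place of MAP2 (-0.11, adjusted p = 0.615). At 0.5 µM it went from 1 to 2 (MAPT and MAP2) with DESeq2 and with the offsets, to 3 (MAPT, MAP1B and MAP2) with genes of at least 1 count and in the 4 samples alone, to 0 with both untreated days, and to 4 in the day 4 samples alone, an alternative chosen after seeing the data. For the mean of the doses it went from 1 to 0 with genes of at least 1 count, to 2 (STMN1 and CKAP5) with both untreated days and to 3 (MAPT, MAP1B and MAP2) in the day 4 samples alone. For the slope it went from 1 to 3 (MAP1B, MAP2 and MAP7) with DESeq2. For treated against untreated samples it went from 1 to 2 with DESeq2, with genes of at least 1 count and in the model of 6 conditions (STMN1 and CKAP5 each time) and with the offsets (STMN3 and CKAP5), and to 0 in the day 4 samples alone.

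With the replicate block, 2 of the 10 genes (MAPT and MAP2) were called at 0.5 µM instead of 1, and 0 for the slope instead of 1 (MAP2 -0.18, adjusted p = 0.0539 by edgeR). The numbers are not taken to pair the samples, and the block changed no other count of the 10 genes.

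Of the other microtubule genes, 8 were called for the mean of the doses, 26 with both untreated days as the control and 22 in the day 4 samples alone. For the slope, 9 were called, 14 with DESeq2, 15 with genes of at least 1 count and 14 with the offsets. For treated against untreated samples, 22 were called, 12 with a mean CPM of at least 1 and 10 in the day 4 samples alone. Over all genes, the main fits tested 25249, and ranges in brackets are over the settings other than leaving a library out. From C1 to C2 82 were called (0 to 390), at 0.0005 µM 592 (459 to 2624) and at 0.005 µM 827 (353 to 3401). At 0.05 µM 2100 were called (1122 to 4808), at 0.5 µM 1596 (820 to 5033) and for the mean of the doses 2460 (1429 to 6629). The slope had 773 (420 to 1635) and treated against untreated samples 6155 (3296 to 7070). Settings with other filters or samples tested 15800 to 48909 genes, so some ends of these ranges are not out of 25249. At 0.0005 µM, 459 of 15800 genes were 2.91%, beside 2.34% in the main fit.

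Each library was also left out in turn. Where that left a condition with 1 sample, the spread was pooled and the lone sample was assumed to vary like the others. Of the 10 genes, 0 to 5 were then called from C1 to C2 (5 without C1 replicate 1), 0 to 1 at 0.005 µM (1 without C1 replicate 1), 0 to 2 at 0.05 µM (2 without C1 replicate 1), 0 to 4 at 0.5 µM and 0 to 3 for the mean of the doses (the highest without either C1 sample), 0 to 2 for the slope (2 without 0.05 µM replicate 2) and 0 to 4 for treated against untreated samples (0 without C1 replicate 1, 4 without C1 replicate 2). None was called at 0.0005 µM. Of the other microtubule genes, 1 to 22 were called for the mean of the doses (1 without C2 replicate 1, 22 without either C1 sample), 0 to 11 for the slope (0 without 0.0005 µM replicate 1) and 12 to 24 for treated against untreated samples (12 without C1 replicate 1).

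These uncalled log2 changes turned in sign when single libraries were left out, over the ranges given. From C1 to C2 they ran from -0.74 to 0.28 for STMN3, -0.17 to 0.68 for MAPT, -0.55 to 0.61 for MAP4, -0.28 to 0.60 for MAP1B, -0.17 to 0.29 for MAP7 and -0.0093 to 0.16 for CLIP1. At 0.0005 µM they ran from -0.23 to 0.060 for STMN1, -0.16 to 0.85 for STMN3, -0.30 to 0.052 for MAP4, -0.014 to 0.30 for MAPRE1 and -0.31 to 0.14 for CKAP5. At 0.005 µM they ran from -0.076 to 0.39 for MAP7 and -0.087 to 0.037 for CLIP1. At 0.05 µM they ran from -0.26 to 0.099 for MAP4, -0.18 to 0.28 for MAP7 and -0.24 to 0.048 for MAPRE1, and at 0.5 µM from -0.058 to 0.091 for CLIP1. For the mean of the doses they ran from -0.19 to 0.28 for MAP7, -0.0092 to 0.070 for MAPRE1 and -0.016 to 0.11 for CLIP1. For the slope they ran from -0.053 to 0.045 for MAPRE1, -0.015 to 0.019 for CLIP1 and -0.10 to 0.019 for CKAP5, and for treated against untreated samples from -0.22 to 0.13 for MAP2.

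Other settings turned these uncalled log2 changes. Both untreated days as the control gave STMN1 -0.15 at 0.5 µM, MAP2 0.24 at 0.0005 µM and 0.093 at 0.005 µM, MAPRE1 -0.040 at 0.5 µM and -0.11 for the mean of the doses, and CLIP1 0.00069 at 0.005 µM. The offsets gave MAP4 0.0062 at 0.05 µM, MAP2 0.048 for treated against untreated samples, MAPRE1 -0.0096 for the mean of the doses, CLIP1 0.063 at 0.005 µM and 0.0056 for the slope, and CKAP5 0.0053 at 0.0005 µM. A mean CPM of at least 1 gave MAP2 0.013 for treated against untreated samples, MAPRE1 0.035 at 0.005 µM and 0.0041 at 0.05 µM, and CLIP1 0.067 at 0.005 µM and 0.0088 for the slope. The day 4 samples alone gave MAPRE1 0.045 for treated against untreated samples.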
